A study of Homo sapiens with 4 samples.

Results

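SMARCA2 and SMARCA4 are the genes whose levels were set apart in this study of open chromatin. The peaks described here are all those of the deposited lists that overlapped the hg19 span of either gene or the 10 kb on either side. The SMARCA2 span runs on chromosome 9 from 2015342 to 2193624 and the SMARCA4 span on chromosome 19 from 11071598 to 11172958, and both genes read toward higher coordinates. The choice used position only and no measured value. It found 12 peaks of 78048 on chromosomes 1 to 22 and X, 2 of them at SMARCA2 and 10 at SMARCA4.

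OVSAHO is an established human ovarian cancer cell line. The test cells were OVSAHO cells in which SMARCA2 was stably raised and SMARCA4 knocked down, named A2-siA4, and the control cells were labelled wild type and named Ctrl-siNC. All cells, of both groups, had been cultured with 25 µM carboplatin (a DNA-crosslinking platinum drug) for 2 days, and untreated cells were not analysed here. Each group had 2 ATAC-seq libraries, called test 1, test 2, control 1 and control 2. In ATAC-seq a transposase cuts and tags accessible DNA. The labels used here do not say how SMARCA2 was raised, whether the test cells were 1 clone, or whether replicates were separate cultures, so p-values measure only the spread between these libraries, which may be technical.

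SMARCA2 (BRM) and SMARCA4 (BRG1) are paralogous ATPases. Each SWI/SNF (BAF) complex holds a single one of them as its motor, which uses ATP to slide or evict nucleosomes at promoters and enhancers. SMARCA4 is lost by mutation in some ovarian cancers, and cells without it often depend on SMARCA2. An accessible promoter usually shows as a gap between nucleosomes just upstream of the gene start. ATAC-seq reads DNA and not RNA or protein, so these peaks do not check whether SMARCA2 was raised or SMARCA4 lowered in the test cells.

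The promoters held the only SMARCA2 calls and the SMARCA4 call with the highest −log10 q, so their reference sequence is shown first. Each line gives the 250 bases before the first RefSeq start of the gene, on the plus strand of GRCh38.p14, at chr9:2015097-2015346 for SMARCA2 and chr19:10960780-10961029 for SMARCA4. Capitals mark the motifs that were found, on either strand.
SMARCA2: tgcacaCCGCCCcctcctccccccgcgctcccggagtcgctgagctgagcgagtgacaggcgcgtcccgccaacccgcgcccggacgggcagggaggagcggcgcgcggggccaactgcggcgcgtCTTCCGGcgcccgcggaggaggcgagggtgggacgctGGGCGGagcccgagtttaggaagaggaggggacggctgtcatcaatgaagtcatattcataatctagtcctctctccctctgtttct
SMARCA4: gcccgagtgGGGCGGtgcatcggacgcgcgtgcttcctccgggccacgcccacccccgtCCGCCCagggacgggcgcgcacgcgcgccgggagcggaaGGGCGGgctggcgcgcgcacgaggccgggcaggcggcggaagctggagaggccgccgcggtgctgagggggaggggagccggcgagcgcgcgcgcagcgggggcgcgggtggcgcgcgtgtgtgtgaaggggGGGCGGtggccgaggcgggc

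Both promoters were rich in G and C. The SMARCA2 window was 68.8% G or C with 29 CpG dinucleotides, and the SMARCA4 window was 82.4% G or C with 44. The medians over 35116 RefSeq promoter windows of the same length were 58% and 11. The SMARCA4 window had a higher G and C share than 98.6% of all windows and the SMARCA2 window a higher one than 76.6%. The motif GGGCGG, the core of the GC box that SP1-family factors bind, matched 4 times in SMARCA4 and 2 times in SMARCA2, and 42.6% of all windows held it. CCGGAAG, a core of ETS-family sites, matched 1 time in SMARCA2 and 0 times in SMARCA4, with 8.52% of all windows holding it. The other motifs searched on both strands had no match in these windows. They were the NF-Y motif CCAAT (held by 32.0% of all windows), the AP-1 motif TGACTCA (4.20%), the cAMP response element TGACGTCA (1.65%), the E-box CACGTG (6.34%), the TATA box TATAAA (10.7%) and the palindromic NRF1 consensus (1.03%). The peaks are on hg19 and were not placed on these GRCh38 sequences.

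Each library had a narrow list, made from nucleosome-free fragments, and a broad list, made from every fragment. The narrow lists rested on 6146272 to 15828837 fragments and the broad lists on 22432549 to 31515662. Control 1 stood apart, with 50.2% of its fragments nucleosome-free against 27.4% to 29.6% in the other libraries, and with the longest lists, 10360 narrow and 18484 broad peaks against 3402 to 5442 and 8895 to 13941. It gave 6 of the 12 peaks, so the results that turn on it are also given without it. Fold enrichment is the authors' ratio of the pileup (fragments over the peak) to the background around it in that library. It is not normalized between libraries, so it is read here within a list. The q of a peak is the authors' adjusted p against that background, given as −log10 q, and peaks entered a list at q = 0.05, a −log10 q near 1.30.

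At SMARCA2, a single broad region was called, at its promoter, and both test libraries had it while the controls did not. In test 1 it ran from 2014904 to 2015246 on chromosome 9, 343 bp wide, with a pileup of 10.3, a fold enrichment of 4.55 and a −log10 q of 3.33. In test 2 it ran from 2014904 to 2015083, 180 bp wide, with a pileup of 8, a fold enrichment of 3.50 and a −log10 q of 1.501. Both peaks began at the same base, 438 bp before the gene start, and ended 96 bp and 259 bp before it, so both lay wholly upstream of the annotated gene. Neither control list had a broad peak in the window, and 0 of the 4 narrow lists had one.

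These SMARCA2 peaks were of middling or low rank in their own lists. The fold enrichment of the test 1 peak stood at percentile 67.8 of that broad list and its −log10 q at percentile 48.8. The test 2 peak stood at percentiles 38.0 and 7.61, and 302 peaks of that list, this one included, shared its exact fold enrichment and q. A pileup of 8 was also the lowest seen in each of the 4 broad lists among peaks on the commonest local background of the list, so the test 2 peak was among the weakest that could be listed there. Since the lists hold only sites past the threshold, a missing peak in the control libraries means no call and not a measured absence of open chromatin.

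The rest of SMARCA2 held no called peak. Across the whole 178 kb gene span, 0 peaks were called in any of the 8 lists. RefSeq lists 4 start windows for SMARCA2 in GRCh38, with the later ones 6.60, 142 and 143 kb after the first. If these distances hold on hg19, the absence of calls in the span covers the later starts but not the first promoter. The region around the gene was also sparse. After the promoter peak, the nearest broad peak to the gene start lay 829 kb away in test 1 and 1206 kb away in test 2. In the control libraries the nearest broad peak lay 1206 kb away in control 1 and 245 kb away in control 2. The nearest narrow peaks lay at 1914 kb in test 1, 1366 kb in control 2 and 1206 kb in each of test 2 and control 1.

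At SMARCA4, peaks were more numerous and were called in a single library each within a list type. Of the 10 peaks, 6 were from control 1, which had the longest lists. Without control 1, control 2 had 1 narrow and 1 broad peak, while test 2 had 2 broad peaks and test 1 had 0 of either kind. Per library, test minus control was then -1 narrow peak and 0 broad peaks, with a single control library left. The promoter was called in control 2 alone. That broad peak ran from 11071417 to 11071606 on chromosome 19, 190 bp wide, from 181 bp before the gene start to 8 bp after it. Its pileup was 22.9, its fold enrichment 3.68 and its −log10 q 5.06, at percentile 48.2 of the control 2 list by fold enrichment and 74.9 by q. It had the highest −log10 q of the 12 peaks, and was the only one of them at 5 or more. No broad peak was called at the SMARCA4 promoter in control 1, test 1 or test 2, and no narrow peak in any library.

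The promoter calls therefore fell on opposite sides for the 2 ATPases, with SMARCA2 called in test 1 and test 2 and SMARCA4 in control 2. For SMARCA4 the control libraries differed from each other, and the test and control groups overlapped, since control 1 had no call either. Without control 1 a single control library was left, control 2, with a SMARCA4 promoter call and no SMARCA2 promoter call. The contrast with the test libraries then rests on that library and on single calls, among them the weak SMARCA2 peak of test 2. The same patterns occurred at broadly active genes, with a broad promoter peak at GAPDH in control 2 alone and at PPIA in test 1 and test 2 alone. RefSeq lists another SMARCA4 start 23.1 kb after the first in GRCh38. The called peak nearest to that distance was the control 1 narrow peak that began 17.1 kb after the hg19 start.

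**Figure D1:**
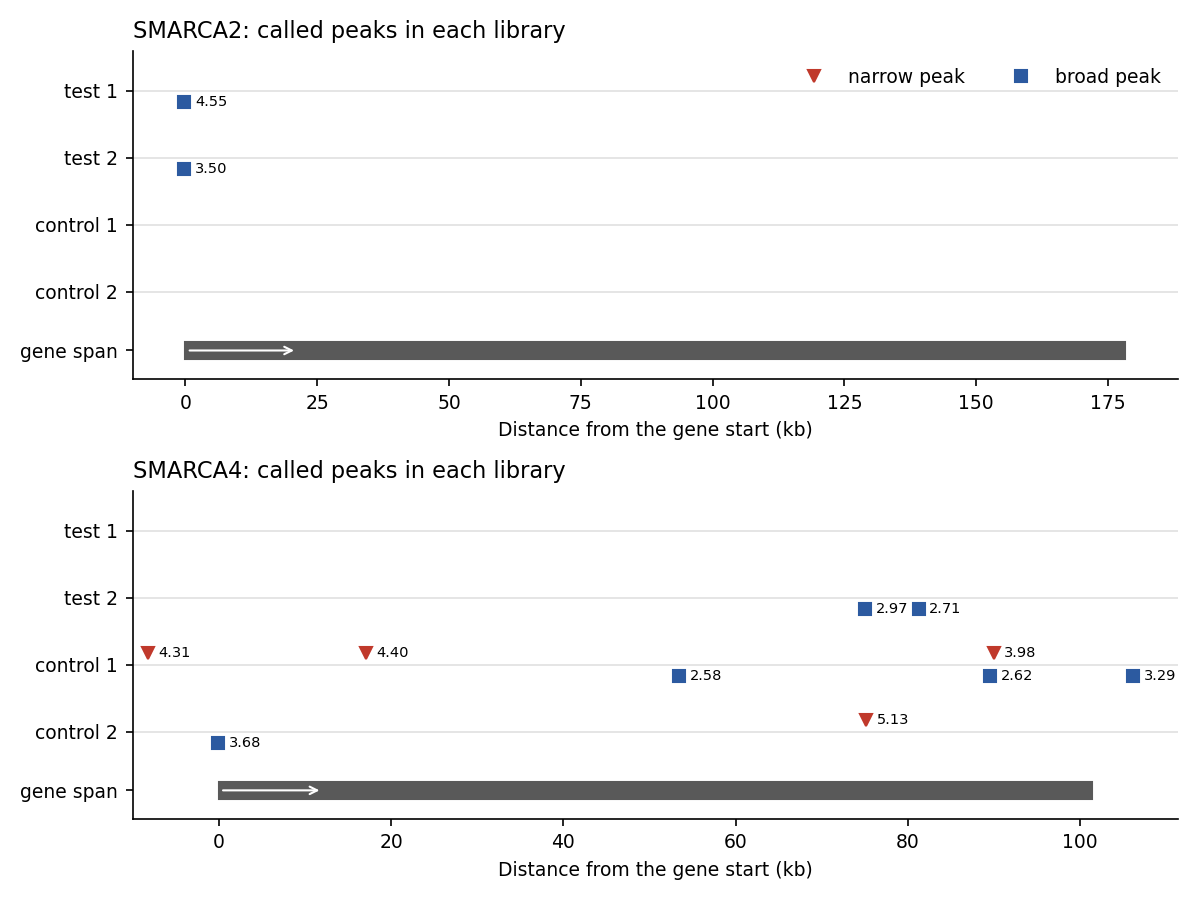
Position of every called peak at SMARCA2 (top) and SMARCA4 (bottom), as distance from the gene start in kb, with 1 line per library and the grey bar marking the gene span and its direction. Triangles are narrow peaks, squares are broad peaks, and the number beside each is the authors' fold enrichment; SMARCA2 has only the 2 promoter peaks of the test libraries, and SMARCA4 has 10 peaks scattered over the window.

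Inside the SMARCA4 gene the calls rarely met. In test 2, broad peaks were called 74.9 kb and 81.0 kb after the gene start. The one at 11146520 to 11146744 had a pileup of 19.5, a fold enrichment of 2.97 and a −log10 q of 2.53. The one at 11152647 to 11153085 had a pileup of 14, a fold enrichment of 2.71 and a −log10 q of 1.34. By fold enrichment both were low in their list, at percentiles 8.58 and 3.50. By q the first stood above the middle, at percentile 59.9, and the other near the bottom, at 0.402. Test 1 had no narrow or broad peak in the SMARCA4 window.

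The site near 75 kb was the only one inside SMARCA4 that more than 1 library touched, and it did so across list types. Control 2 had a narrow peak there from 11146681 to 11146796, with its summit at 11146712, a pileup of 8, a fold enrichment of 5.13 and a −log10 q of 2.97. It shared 64 bp with the broad peak of test 2. So nucleosome-free fragments gave the call in a control library and all fragments gave it in a test library, and the site separated no groups.

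Control 1 gave the other 6 SMARCA4 peaks, 3 broad and 3 narrow. Its broad peaks lay at 11124995 to 11125129, with a fold enrichment of 2.58 and a −log10 q of 1.44, and at 11161062 to 11161246, with 2.62 and 1.51. The third, at 11177632 to 11177834, lay 4.67 kb past the gene end, with a fold enrichment of 3.29 and a −log10 q of 2.38. By fold enrichment these stood at percentiles 2.12, 2.49 and 26.0 of the control 1 list, and by q at 5.31, 10.4 and 77.1.

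The narrow peaks of control 1 ranked low by both measures. The one at 11063309 to 11063374 lay 8.22 kb before the gene start, with a pileup of 7, a fold enrichment of 4.31 and a −log10 q of 2.00. The one at 11088669 to 11088746 had a pileup of 8, a fold enrichment of 4.40 and a −log10 q of 2.16. The last, at 11161487 to 11161570, had a pileup of 9, a fold enrichment of 3.98 and a −log10 q of 1.97. It lay 241 bp from the broad peak of the same library at 11161062, the closest that 2 peaks of control 1 came to each other in the window. The 3 narrow peaks stood at percentiles 15.9, 20.7 and 7.50 by fold enrichment and 13.5, 21.1 and 9.86 by q.

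The comparison of groups asked whether the raised and the lowered ATPase gene carried more or fewer called sites in the test cells. In the SMARCA2 window each test library had 1 broad peak and each control library 0. The groups did not overlap, with a test mean of 1 ± 0 and a control mean of 0 ± 0 (SD, n = 2 libraries each). The exact permutation test, two-sided, gave p = 0.33, the smallest that 2 against 2 libraries allow. Narrow peaks in the SMARCA4 window numbered 0 in both test libraries, against 3 for control 1 and 1 for control 2, a test mean of 0 ± 0 and a control mean of 2 ± 1.41 (SD, n = 2 libraries each, exact permutation p = 0.33). Again the groups did not overlap. Nor did they over the whole narrow lists, with 3402 peaks in test 1 and 4171 in test 2 against 10360 in control 1 and 5442 in control 2. In the SMARCA4 window, the narrow difference without control 1 was -1 peak in place of -2. Of broad peaks there, test 1 had 0 and test 2 had 2, while control 1 had 3 and control 2 had 1, a test mean of 1 ± 1.41 and a control mean of 2 ± 1.41 (SD, n = 2 libraries each, exact permutation p = 0.667). Here the groups overlapped, and without control 1, or without test 1, the difference was 0. Adjusted over these 3 tests by Benjamini-Hochberg, the exact p-values were 0.5, 0.5 and 0.667. With the SMARCA4 window widened to 50 kb on either side of the gene, the narrow difference turned to 0.5 more peaks in the test libraries. Among peaks with a −log10 q of 5 or more, and in lists cut to equal length, it was 0.

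Merged across libraries, the 12 peaks formed 11 regions, 7 broad and 4 narrow. The SMARCA2 promoter was the single test-only region (a call in each test library and none in the controls), which made 1 of 7 broad regions. Over all 36726 broad regions, 1.03% were test-only. Without control 1 the SMARCA2 promoter was again the only such broad region, by a looser rule under which only control 2 had to lack a call. The share of all broad regions under that rule is not given here, so the 1.03% does not apply to it. No broad region was control-only, where 1.24% of all were, and of the 4 narrow regions 0 were test-only and 0 control-only, against 1.25% each over 17554 narrow regions. With so few regions these shares are counts and not a comparison. The other 10 of the 11 regions were each called in a single library, as were 70.4% of all broad and 80.7% of all narrow regions. Without control 1, 5 regions were left at the genes and 4 of them were called in a single library, with shares of 63.5% of all broad and 68.6% of all narrow regions. The SMARCA2 call did not persist when the lists were made stricter. With broad lists cut to the length of the shortest, the test 2 peak dropped out. The test 1 list was the shortest and was not cut, so its peak could not drop out. At a −log10 q of 5 or more neither peak stayed.

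The genes differed in the background under their peaks. The local background can be recovered from each peak as its pileup plus 1, divided by its fold enrichment, minus 1, and for a broad peak, whose values are averages over the region, the result is approximate. At SMARCA2 it was 1.49 fragments in test 1 and 1.57 in test 2. These match, within 2%, the commonest values of the 2 broad lists, 1.49 and 1.57, and lie below the chromosome 9 medians of 2.10 and 2.04. They are also close to the genome-wide values, 1.48 and 1.56, computed from the number and size of the fragments. Of the peaks of these lists, 14.3% (test 1) and 18.4% (test 2) lay at the commonest value. The SMARCA2 values may thus be a floor of the list and not the background of the locus itself. At SMARCA4 the 6 broad peaks had backgrounds of 4.12 to 6.01 fragments, 2.69 to 3.92 times the commonest value of their lists. The medians of all broad peaks on chromosome 19 were 3.67 (test 2), 3.31 (control 1) and 3.97 (control 2), so each SMARCA4 peak lay above the median of its chromosome. Without control 1 the 3 remaining broad peaks had backgrounds of 4.53 to 5.90 fragments, 2.88 to 3.75 times the commonest value. The narrow peaks of SMARCA4 had backgrounds of 0.753 to 1.51 fragments, 2.32 to 4.14 times the commonest value, and the single one not from control 1 had 0.753.

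A peak at SMARCA4 therefore needed more fragments for the same ratio. The broad peaks of SMARCA4 had pileups of 14 to 22.9 and fold enrichments of 2.58 to 3.68, whereas those of SMARCA2 had pileups of 8 and 10.3 and fold enrichments of 3.50 and 4.55. The weakest SMARCA4 pileup, 14 in test 2, exceeded both SMARCA2 pileups, yet its fold enrichment was below that of the SMARCA2 peak in the same library. What sets the higher background at SMARCA4 was not tested.

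**Figure D2:**
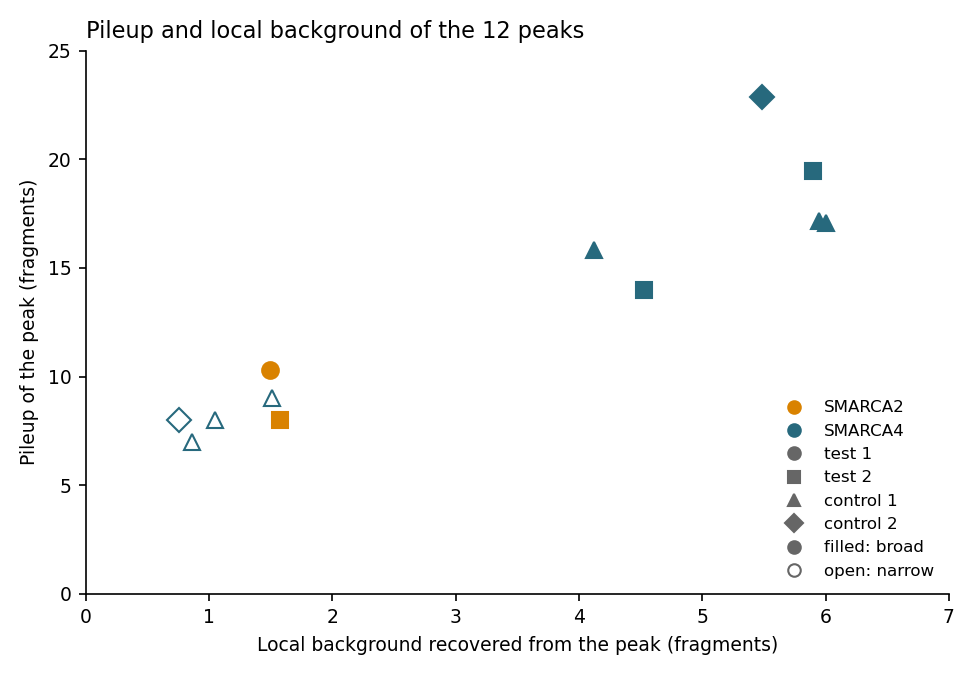
Pileup of each of the 12 peaks (vertical axis, fragments) against the local background recovered from it (horizontal axis, fragments), with colour for the gene, shape for the library, filled symbols for broad and open symbols for narrow peaks. The 2 SMARCA2 peaks sit at a background near 1.5 and the 6 broad SMARCA4 peaks between 4.12 and 6.01.

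Around SMARCA4, stronger sites were shared by the libraries of both groups. Within 150 kb of the gene span and outside the window, 12 broad regions were called, of which 9 were in 2 or more libraries and 6 in test 1, test 2 and control 2 together. The broad region at 10981632 to 10982094, 89.5 kb before the gene start, had fold enrichments of 7.18 (test 1), 5.59 (test 2) and 7.09 (control 2). The one at 11196154 to 11196629, 23.2 kb past the gene end, was called in all 4 libraries, with 4.05 (test 1), 3.38 (test 2), 3.16 (control 1) and 3.71 (control 2). Inside the SMARCA4 window 0 regions were shared within a list type. Around SMARCA2, 1 broad region and 0 narrow regions were called within the same distance, the broad one in control 2 alone. Control 1 had a peak in 5 of the 12 broad regions near SMARCA4 and in 1 of 12 narrow ones.

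Promoters of the other SWI/SNF subunits were called in part. For comparison, 1 kb on either side of the start was examined for 11 of 16 listed subunit genes and 7 of 8 genes active in nearly all cells. The positions of these genes on hg19 were written by hand, and a gene was kept where its chromosome, strand and span length matched RefSeq. None of these 11 subunit promoters had a narrow peak in any library, as was so for SMARCA2 and SMARCA4. Broad peaks were called at 3 of 11 in each of test 1, test 2 and control 2 and at 0 in control 1, at 4 genes in all.

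The subunit genes with a call were spread over the groups. SMARCD2, a core BAF subunit, was called in test 1, test 2 and control 2, with fold enrichments of 4.85, 3.61 and 3.73. SS18, a BAF subunit fused in synovial sarcoma, was called in the same libraries, with 4.46, 3.71 and 5.42. DPF2, which reads modified histone tails, was called in test 1 and control 2, and ARID1A, the DNA-binding subunit often mutated in ovarian clear cell carcinoma, in test 2. The promoters of ARID1B, PBRM1, SMARCB1, SMARCD1, SMARCD3, BRD7 and BRD9 had no call. None of the 11 was test-only or control-only.

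Of the 5 subunit genes left out, 4 matched in chromosome and span and lacked only a strand to match, and all 4 had a promoter peak. Counting these too, a choice made after their values were seen, 8 of 15 subunit promoters had a broad peak and 2 a narrow one. ACTL6A, an actin-related subunit, had narrow peaks with fold enrichments of 5.94 (test 1), 7.42 (test 2) and 5.36 (control 2) and broad peaks in the same libraries. SMARCC2, a core scaffold subunit, had narrow peaks in test 1 (5.34) and control 2 (4.75) and a broad peak in test 1 (3.24). ARID2, a subunit of the PBAF form of the complex, had a broad peak in test 1 (3.93), and SMARCC1, the paralog of SMARCC2, had one in test 2 (3.80). Control 1 had no peak at any of the 15, and 0 of the 15 were test-only or control-only in either list type.

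Of the 7 widely active genes, test 1 and control 2 each had a broad peak at 5 promoters, test 2 at 4 and control 1 at 1. The active gene left out, ACTB, lacked only a strand to match and had no promoter peak in any list. EEF1A1, which encodes a translation elongation factor, was called in all 4 libraries, with fold enrichments of 5.48, 3.36, 3.09 and 4.02. PPIA, which encodes cyclophilin A, was called in test 1 and test 2 alone, as SMARCA2 was, with 5.05 and 4.38. HPRT1 had no call in any library, although the gene is active in nearly all cells. The promoter of an active gene can thus go uncalled in every list, although 6 of the 7 had a broad peak in at least 1 library. Narrow peaks were called at 2 of the 7, EEF1A1 (test 1, test 2 and control 2) and TBP (test 1). Control 1 called only EEF1A1 of the 7. Of the marker genes, 2 of 6 for ovarian or epithelial cells and 1 of 3 for other cells could be matched to RefSeq. These, the ovarian lineage genes PAX8 and WT1 and the leukocyte gene PTPRC, had no promoter peak in any list. Among the markers left out, the epithelial gene EPCAM, which lacked only a strand to match, had broad promoter peaks in test 1 (3.66), control 1 (3.65) and control 2 (3.22), and the keratin gene KRT8, whose span did not match, had one in test 1 (3.65). The keratin gene KRT18, left out for its strand, and the ovarian marker MUC16, left out for its span, had no promoter peak in any list. The leukocyte gene CD3E and the stromal gene COL1A1, also left out for their strand, had none. These few calls are too sparse to check the labelled cell type.

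**Figure D3:**
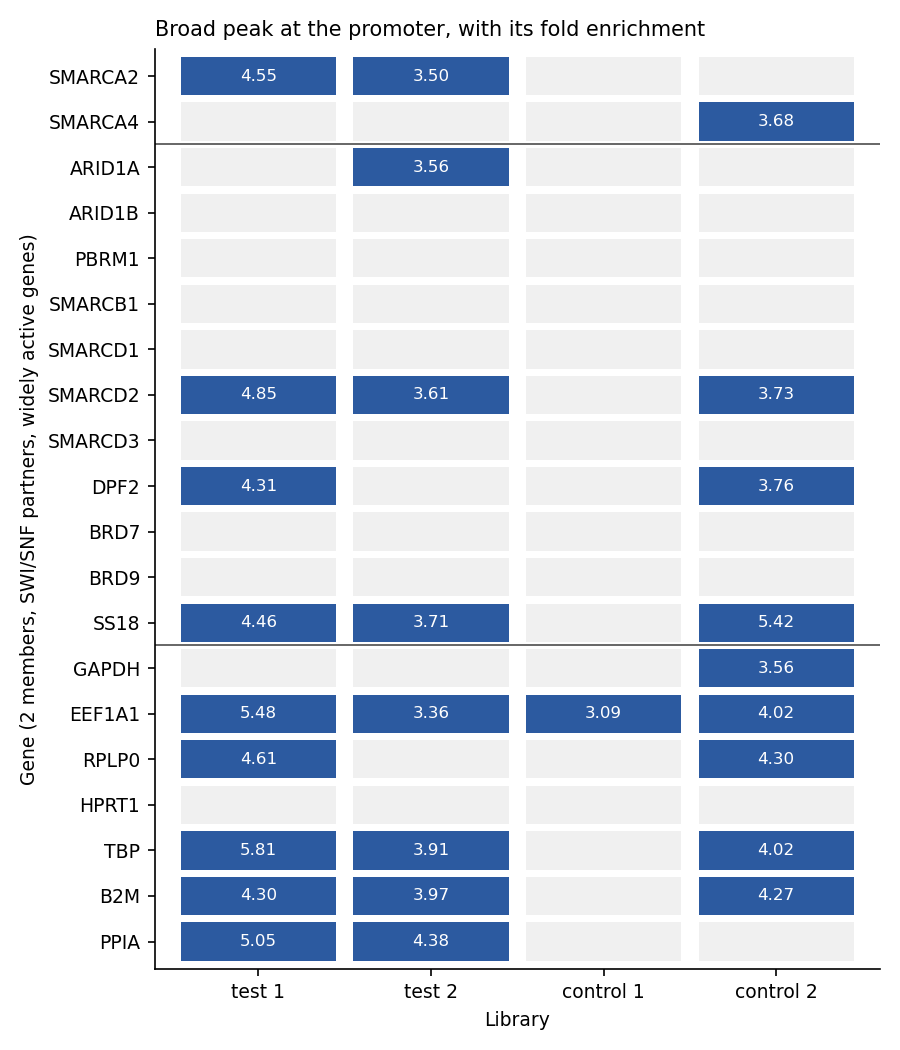
Broad peaks within 1 kb of the gene start in each library (columns) for SMARCA2 and SMARCA4 (top), 11 other SWI/SNF subunit genes (middle) and 7 widely active genes (bottom). Blue cells hold a peak, with its fold enrichment printed, and grey cells hold none; SMARCA2 is called in test 1 and test 2, SMARCA4 in control 2, and control 1 has a call only at EEF1A1.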

How the data were processed

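ATAC-seq peak lists of 4 OVSAHO libraries were used, a narrow and a broad list each. Groups and replicate numbers come from the labels. Per the file headers, MACS2 2.2.7.1 called each library on its own from paired-end fragments, with no control sample, duplicates kept, q at 0.05 and the local background taken over 10000 bp. Narrow lists used nucleosome-free fragments, per the file headers. The build was hg19, per the submitters' processing notes, which also list, with no role, Bowtie2 2.3.5.1, cutadapt 3.2, edgeR 3.34.1, Picard and deepTools 3.5.1. The deposited pileup is a coverage signal, the deposited fold enrichment is a ratio to the background of the same library, and the deposited p and q values are on the −log10 scale. None is normalized between libraries.

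Peaks on chromosomes 1 to 22 and X were matched to the gene spans by a shared base (1-based positions). Peaks of 1 kind sharing 1 bp were merged across libraries, and the merging was tested on simulated data. Group means of peak numbers were tested by exact permutation (6 assignments, two-sided). A promoter was 1 kb on either side of the gene start. A background counted as the commonest value within 2%, and reference genes were kept with a span length within 10% of RefSeq and a matching strand. All peaks at both genes are named. The genes, gene lists, motifs and tests were chosen with earlier results of these data known. Sequences are from RefSeq on GRCh38.p14. Alternatives were lists of equal length, peaks at −log10 q 5 and above, flanks of 0 or 50 kb, a promoter of 2.5 kb, 50% overlap, merging within 100 bp, peak numbers divided by fragments, the replicate block and the omission of each library. Software was scipy 1.17.1, matplotlib 3.10.9, numpy 2.4.6 and pandas 2.3.3 under Python 3.11.15.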

Additional observations from a re-analysis of the deposited data

How the results depend on the processing

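Of 94 recalculations of 14 results, 74 kept the direction or stayed within 1.5 times the value, 19 moved and 1 reversed. Many of the 74 were values of 0 that stayed 0. A stricter cutoff or a shorter list cannot add a peak where none was called, so the 74 do not measure how robust the calls are. The reversal was the narrow difference at SMARCA4, which went from -2 to 0.5 peaks with a flank of 50 kb. At a −log10 q of 5 or more that difference was 0, as it was in lists of equal length, and the SMARCA2 broad difference, the SMARCA2 promoter calls and the test-only broad regions were each 0. In lists of equal length the SMARCA2 promoter kept 1 library of 2, test 1, whose broad list was not cut, and the test-only broad regions fell to 0. Without a flank the SMARCA2 broad difference and the test-only broad count were 0, because the promoter peaks end before the gene start. With a flank of 50 kb there was 1 test-only narrow region in place of 0. Leaving out each library in turn, the SMARCA2 broad difference stayed at 1. The SMARCA4 narrow difference ranged from -3 to -1 and the SMARCA4 broad difference from -2 to 0. The test-only broad count ranged from 1 to 3 (3 without test 1). The control-only counts ranged from 0 to 3 in both peak types (1 without control 1 and 3 without control 2). These counts used a looser rule, since a group with a library left out was judged by its remaining library alone. The shares of all regions under that rule are not given here. With SWI/SNF genes matched by span alone, added after the data were seen, promoters with a narrow peak in any library went from 0 to 2 and with a broad peak from 4 to 8. With so few peaks, a single call decides most of these values.

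The labels do not say that equal replicate numbers mark a shared culture or day. The numbers were therefore not taken as pairs. Over all regions, deviations of equal numbers correlated at -0.0187 in narrow and -0.0786 in broad lists. Most regions, 80.7% of narrow and 70.4% of broad, were called in a single library, which pulls this correlation toward 0. It therefore cannot decide whether the numbers are pairs. With the replicate block, the differences were 1 (SMARCA2 broad), -2 (SMARCA4 narrow), -1 (SMARCA4 broad) and 0 (SMARCA2 narrow), with exact p-values of 0.5, 0.5, 1 and 1, and 0.5 is the smallest that 2 pairs allow.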
